A study of Saccharomyces cerevisiae with 12 samples.

Results

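Growth in minimal medium was compared with growth in YEPD, a rich medium, in the RNA of budding yeast that was captured through the NAD cap chemistry with the enzyme ADP-ribosylcyclase (ADPRC). The 3 minimal ADPRC libraries were set against the 3 YEPD ADPRC libraries. Every identifier with a mean deposited value of at least 10 over these 6 libraries was kept, apart from 8 open reading frames inside the ribosomal DNA, which left 5488 of 6607 identifiers. Another 1111 fell below that mean. The identifier just inside was FRE7 with a mean of 10.01, and the one just outside was YHR022C with 9.98.

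All libraries came from BY4742, a haploid alpha strain of Saccharomyces cerevisiae that carries deletions at HIS3, LEU2, LYS2 and URA3, so these deletions are common to both media. The minimal medium held yeast nitrogen base, a full amino acid mixture and 2% dextrose, and YEPD also held 2% dextrose. Cultures were taken at mid-log phase, near an OD600 of 0.5. RNA was DNase-treated, kept its ribosomal RNA, was not fragmented, and met 4-pentynol with ADPRC or, in 6 further mock libraries (3 from each medium), without it, before biotin was clicked on and cDNA was made on streptavidin beads. Nothing in the labels says that replicates are separate cultures. The p-values therefore reflect only how far these libraries scatter, and that scatter may be technical.

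Some RNAs begin with NAD in place of the usual methylguanosine cap, and ADPRC swaps the nicotinamide of that NAD for an alkyne that can be biotinylated. Yeast nitrogen base supplies ammonium, inorganic phosphate, sulfate, vitamins and metals in set amounts, whereas YEPD draws nitrogen, metals, sulfur and phospholipid precursors from yeast extract and peptone. Yeast regulates uptake and synthesis of each nutrient through its own transcription programme: Zap1 for zinc, Aft1 for iron, Ace1 and Mac1 for copper, Pho4 for phosphate, Ino2 and Ino4 for phospholipids, Met4 for sulfur and Gcn4 for amino acids. A captured level combines the abundance of an RNA with how well it is captured. A difference between media in ADPRC libraries alone therefore does not separate these quantities.

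The 3 YEPD columns were unnumbered, replicate 2 and replicate 3, and their values are given in that order throughout, as rescaled normalised read counts. Library totals were 7959385, 6727168 and 7122417 reads in minimal ADPRC, against 13370410, 13958188 and 12051316 reads in YEPD ADPRC. Reads on the kept genes numbered 4643461 to 5494031 in minimal and 2472800 to 4913337 in YEPD. The ribosomal DNA frames took 30.9% to 33.2% of reads in minimal and 64.8% to 79.5% in YEPD. YEPD ADPRC replicate 2 stood apart: its ribosomal share was the lowest of the YEPD group, its kept genes held the most reads, and its Pearson correlation with the other YEPD libraries was 0.951 and 0.958, against 0.991 between those 2. Of the deleted genes, LEU2, LYS2 and URA3 averaged 0 in both media, while HIS3, whose deletion in this strain is partial, had 144, 152 and 154 in minimal and 179.7, 222 and 111 in YEPD, and the groups overlapped.

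Between the media 338 of 5488 genes were higher in minimal (6.16%) and 297 were lower (5.41%), at an adjusted p under 0.05 from limma on log2(normalised read count + 1). In all 635 the 3 minimal libraries did not overlap the 3 YEPD libraries, a separation that 1691 of all genes showed (30.8%). Changes over 2-fold numbered 189 higher and 213 lower, and the median log2 change over all genes was -0.0023. With the values as deposited, which move the median of all genes by -0.19, the counts were 263 higher and 678 lower. Without YEPD replicate 2 the counts were 1585 higher (28.9%) and 1564 lower (28.5%), and all 635 calls were among them. Without minimal replicates 1, 2 or 3 the counts of higher genes were 215, 220 and 221.

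The split between higher and lower genes differed with whether another open reading frame lay beside the gene. RefSeq matched 5427 of the kept identifiers, and 4113 of these were clear of other frames, meaning that they overlapped no annotated gene and had no unmatched identifier at the same or the next systematic number. Among clear genes 119 were higher (2.89%) and 209 lower (5.08%). Among the other 1314 genes, which lie beside or overlap a frame, 215 were higher (16.4%) and 64 lower (4.87%), and of the 61 identifiers without a match 4 were higher (6.56%) and 24 lower (39.3%). A frame of the opposite strand letter stood beside 206 of those 215 higher genes, 41 of the 64 lower ones and 897 of all 1314.

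**Figure D1:**
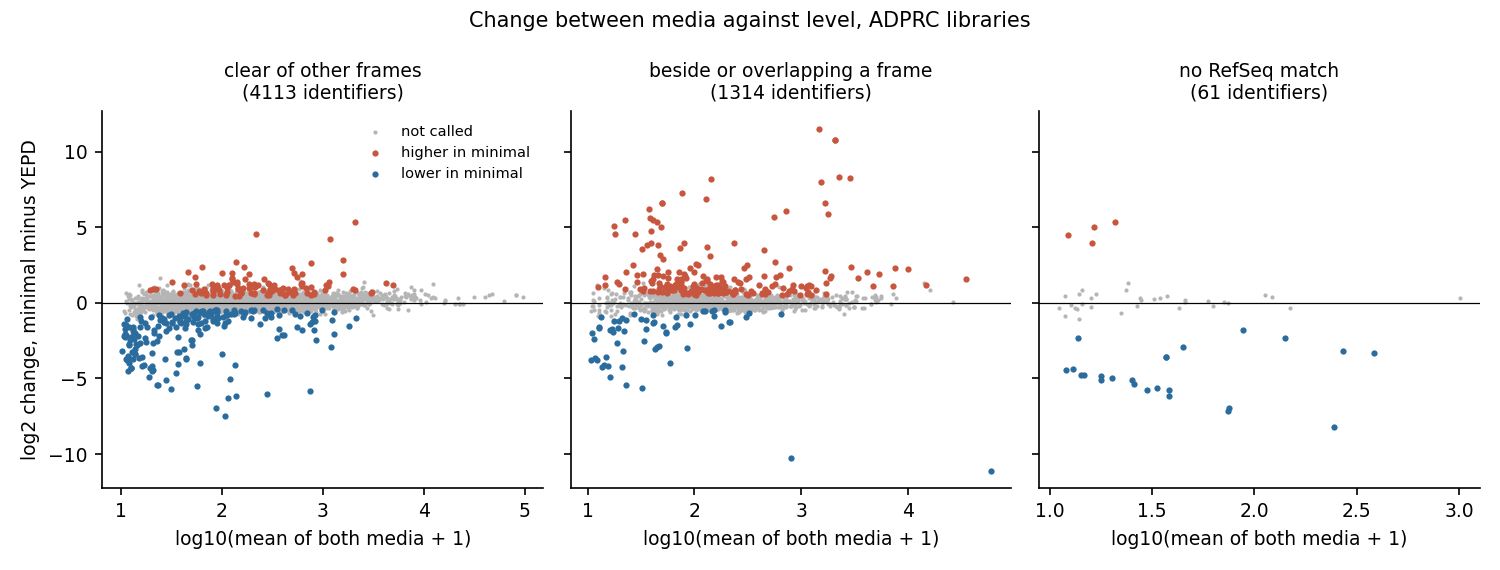
Log2 change (minimal minus YEPD, ADPRC libraries) against the log10 mean of both media, with 1 point per identifier and called genes in colour. Of 119 higher calls among clear genes 3 exceed 8-fold, whereas 36 of the 43 higher calls over 8-fold belong to genes beside or overlapping a frame.

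The 12 largest rises at a mean of at least 50 all came from genes beside or overlapping a frame. HYP2, which encodes translation factor eIF5A, had 2958, 3100.0 and 2754 in minimal and 0 in all 3 YEPD libraries, at least 1117-fold higher when the YEPD level is set at the floor of 3 reads per library. RPL33A, a ribosomal protein gene, had 3150.4, 3754 and 3053 in the minimal libraries, against 28.6, 38.7 and 30.7 in the YEPD libraries, a log2 change of 6.63 ± 0.15 (SE). Its neighbour frame YPL142C ran the other way, with 0 in every minimal library against 65.3, 107 and 51.8 in YEPD. The groups did not overlap for any of these.

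Most frames beside a higher gene were too low to be classed by direction. Unmatched frames of the other strand letter made 221 pairs with higher genes: in 190 the frame averaged below 10 in both media, in 26 it was higher in YEPD without overlap, in 2 it was higher in minimal without overlap, and in 3 the groups overlapped. Over all 952 pairs, with genes of any call, the same 4 counts were 818, 85, 30 and 19. With genes not called they were 592, 56, 25 and 15 of 688. The frame YEL034C-A beside HYP2 itself had 3.41, 6.17 and 3.92 in the minimal libraries, against 0, 0 and 0 in the YEPD libraries. That is the same direction as HYP2, but with a mean below 10 in both media. The next 2 pairs were chosen because they cross. RPL39 had 1265, 1983 and 1010.0 in the minimal libraries, against 13.4, 26.5 and 19.04 in the YEPD libraries, and the frame YJL188C beside it 0.568, 0 and 0 in the minimal libraries, against 33.98, 113 and 46.5 in the YEPD libraries. The glycolytic gene GPM1 had a mean of 16032 in minimal and 4057 in YEPD, while YKL153W beside it had 1.70, 0 and 0.653 in minimal and 452, 550.0 and 460.0 in YEPD. YLR162W, which lies next to the ribosomal DNA frames by number and is kept by the rule, had 37.5, 50.8 and 81.01 in the minimal libraries, against 125790.0, 103095 and 134510.0 in the YEPD libraries. The ribosomal frames named for the Watson strand took 0.0105% to 0.0235% of reads in minimal ADPRC and 51.2% to 61.3% in YEPD ADPRC libraries, and in mock libraries 0.0256% to 0.0438% in minimal and 60.1% to 62.4% in YEPD. Whether reads were counted by strand is not given in the sources used here, and the growth medium and any difference in library preparation or counting between the media cannot be told apart, for clear genes as well. Identifiers at 0 in every minimal library and above 0 in every YEPD library, ADPRC and mock together, included 12 clear ones, and those with the opposite pattern 0.

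**Figure D2:**
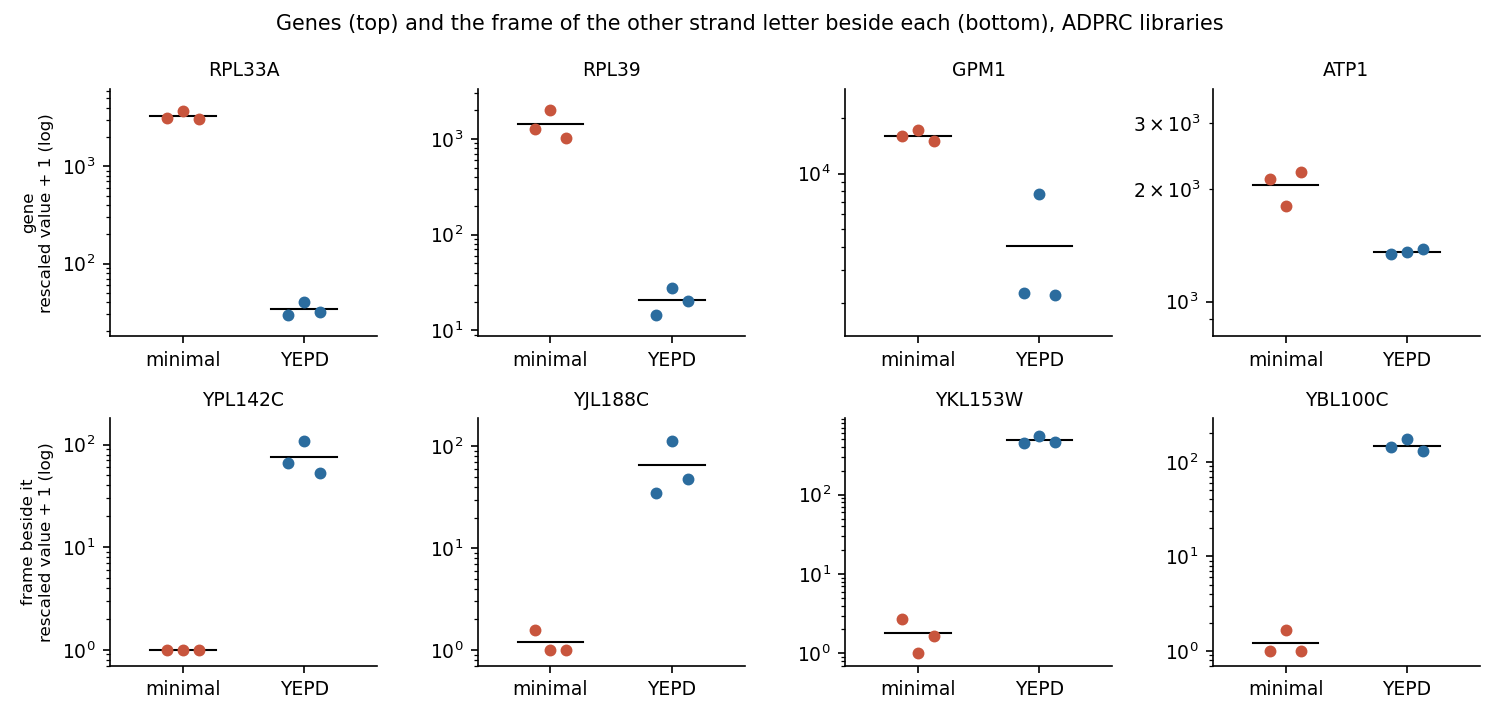
Normalised read count plus 1 (log axis) in each ADPRC library, for 4 genes, chosen because they cross, in the top row and the frame beside each in the bottom row, minimal left of YEPD, with a bar at the group mean. Genes stand higher in minimal and frames higher in YEPD: RPL33A averages 3319 in minimal and 32.7 in YEPD, while YPL142C is at 0 in all 3 minimal libraries.

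The other genes with the 12 largest rises at a mean of at least 50 were the metallothionein copies CUP1-1 and CUP1-2, the ribosomal protein genes RPL43A, RPL36B, RPL22A and RPL28, and RGI1, CPP2 and PGA2, with log2 changes of 5.88 to 10.78, each beside or overlapping a frame. CUP1-1 and CUP1-2 are near-identical tandem copies with the same values in every library, so their counts are uncertain. Among clear genes, a set drawn after values were seen, the 12 largest rises with a symbol and a mean of at least 50 were ZRT1, ZPS1, OPI3, SAM2, FIT2, VMA9, ARG3, CHO1, STR3, SIT1, MET13 and ITR1, with log2 changes of 1.94 to 5.36. In the text that follows, gene lists with calls are mostly given with their count among clear genes. The lists were drawn from textbook pathways. For many of them the count stands beside the median, and the background percentages are those above. For counts without YEPD replicate 2 the background is 28.9% of all genes higher and 28.5% lower.

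Many zinc genes were higher in minimal medium, 7 of 12. ZRT1, the high-affinity zinc importer of the plasma membrane, had 4094, 4500.1 and 3679.9 in the minimal libraries, against 80.5, 162 and 71.9 in the YEPD libraries, a log2 change of 5.36 ± 0.29 (SE, n = 3 each; limma, adjusted p = 1.25e-05). ZPS1, a secreted protein gene regulated by zinc, had 404, 416 and 418 in the minimal libraries, against 21.5, 16.3 and 13.7 in the YEPD libraries, a log2 change of 4.53 ± 0.17 (adjusted p = 1.42e-06). The lowest minimal library was far above the highest YEPD library for both.

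Of 12 zinc homeostasis genes 7 were higher and 0 lower, with a median log2 change of 0.76, and all 7 are clear genes. They include ZAP1, the zinc-responsive activator, at 203, 203 and 240.4 in minimal and 119, 84.2 and 121 in YEPD (log2 1.01 ± 0.17), the vacuolar exporter ZRT3 (0.94) and the low-affinity importer ZRT2 (0.87). Scaling libraries to the same total moves the median of all genes by -0.15. Under that scaling the calls of ZAP1, ZRT2 and ADH4 ended (limma, adjusted p = 0.0806, 0.0538 and 0.2). ADH4 (log2 0.66) also lost its call with the values as deposited (limma, adjusted p = 0.0533) and without minimal replicate 2 (0.0782) or 3 (0.0868). The counts without YEPD replicate 2 were 7 higher and 1 lower.

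Genes of phospholipid synthesis and inositol uptake were also higher in minimal medium, 12 of 18. OPI3, which methylates phosphatidylethanolamine towards phosphatidylcholine, had 2185, 2214 and 2301 in the minimal libraries, against 96.6, 158 and 107 in the YEPD libraries, a log2 change of 4.24 ± 0.19 (adjusted p = 3.99e-06). CHO1, the phosphatidylserine synthase, had 785, 975 and 683 in the minimal libraries, against 133, 279 and 112 in the YEPD libraries (log2 2.32 ± 0.32). ITR1, the inositol transporter and the most abundant member, had 2345, 2456 and 2651 in the minimal libraries, against 674, 504 and 797 in the YEPD libraries (log2 1.94 ± 0.18). No library of one medium reached into the range of the other for these 3 genes.

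INO1, inositol 3-phosphate synthase, showed the largest change of the list with 1047, 1234 and 996 in the minimal libraries, against 19.7, 16.3 and 26.4 in the YEPD libraries (log2 5.67 ± 0.19), although the frame YJL152W lies beside it. That frame was low in both media, at 1.14, 0.686 and 3.27 in minimal and 2.68, 4.75 and 2.12 in YEPD. Of 18 tested members 12 were higher and 0 lower, with a median of 1.04, and among the 15 clear members 9 were higher. The choline transporter HNM1 (log2 1.26), the cholinephosphotransferase CPT1 (1.20) and CHO2, the methyltransferase that acts before OPI3 (1.10), were among them. The counts were 14 and 1 without YEPD replicate 2.

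Sulfur genes changed in both directions. SAM2, S-adenosylmethionine synthetase, had 2731, 2974 and 2673 in the minimal libraries, against 306, 521 and 367 in the YEPD libraries, a log2 change of 2.84 ± 0.20 (adjusted p = 4.64e-05). MET6, methionine synthase and the most abundant member, had 12743, 12597 and 12552 in the minimal libraries, against 2395, 2831 and 2630.1 in the YEPD libraries (log2 2.27 ± 0.15), beside 2 frames that held 0 to 1.06 in every library. The groups of both genes were widely separated. SUL1, the high-affinity sulfate importer, fell to 0.568, 2.06 and 2.61 in minimal, against 77.8, 44.8 and 77.2 in YEPD (log2 -4.66 ± 0.38, adjusted p = 9.62e-05).

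In all, 11 of 26 genes of sulfate assimilation and methionine synthesis were higher and 1 was lower, with a median of 0.68, and the 22 clear members gave 7 and 1. MET28, a cofactor gene of the Met4 activator, had 27.8, 32.9 and 39.2 in minimal and 0 in all YEPD libraries, at least 12.7-fold higher against the floor, and lies beside a frame. MET13, methylenetetrahydrofolate reductase (log2 1.97), and STR3, cystathionine beta-lyase (2.00), were higher, while the second sulfate permease SUL2 changed by 0.066 ± 0.15 (SE) and was not called. Leaving out YEPD replicate 2 gave 19 higher and 1 lower.

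Of the iron uptake genes 12 of 24 were higher. FIT2, a cell wall mannoprotein that retains siderophores, had 240.2, 249.7 and 219 in the minimal libraries, against 35.8, 44.8 and 27.5 in the YEPD libraries (log2 2.70 ± 0.18, adjusted p = 4.01e-05). TIS11, which directs decay of mRNAs for iron-using proteins, had 69.8, 76.8 and 71.9 in the minimal libraries, against 18.8, 16.97 and 14.8 in the YEPD libraries (log2 2.05 ± 0.16). FET3, the ferroxidase of high-affinity uptake and the most abundant member, had 2743, 2907 and 2812 in the minimal libraries, against 920.1, 872 and 937 in the YEPD libraries (log2 1.63 ± 0.12), with a frame beside it. In each case the media did not overlap.

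Of 24 iron genes 12 were higher and 2 lower (9 and 2 of 19 clear genes), with a median of 0.57. The siderophore transporter SIT1 rose by a log2 change of 1.98, and its relatives ENB1 and ARN1 by 1.23 and 1.15. The ferric reductase genes FRE5 and FRE4 ran against the list: FRE5 had 13.6, 17.1 and 16.98 in the minimal libraries, against 248, 107 and 190.4 in the YEPD libraries (log2 -3.36 ± 0.29), and FRE4 changed by -1.28. The counts became 13 and 4 when YEPD replicate 2 was left out.

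Among copper genes, CTR1, the high-affinity copper importer, was lower in minimal, with 31.8, 34.3 and 28.7 in the minimal libraries, against 98.4, 88.3 and 107 in the YEPD libraries (log2 -1.60 ± 0.14), and so was the reductase gene FRE7 (-3.21). CUP2, which encodes the copper-responsive activator of CUP1, was higher (1.34). Of 10 tested members 3 were higher and 2 lower, but the 6 clear members gave 0 higher and 1 lower, since CUP1-1, CUP1-2, CUP2 and CTR1 lie beside frames. Superoxide dismutase SOD1, the most abundant member, averaged 3529 ± 178 in minimal and 1599 ± 1250.3 in YEPD (SD, n = 3) and was not called (adjusted p = 0.0926). Leaving out YEPD replicate 2 gave 6 higher and 3 lower.

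Phosphate genes were lower in minimal medium in 10 of 17 cases. PHO84, the high-affinity phosphate importer and the most abundant member, had 277, 263 and 285 in the minimal libraries, against 2358, 1591 and 2412 in the YEPD libraries, a log2 change of -2.92 ± 0.18 (adjusted p = 2.13e-05). PHO89, the sodium-coupled importer, had 1.14, 0.686 and 0.653 in the minimal libraries, against 25.04, 21.7 and 14.8 in the YEPD libraries (log2 -3.54 ± 0.30). VTC3, a subunit of the vacuolar complex that makes polyphosphate, had 275, 250.4 and 289 in the minimal libraries, against 1048, 704 and 1129 in the YEPD libraries (log2 -1.79 ± 0.19). All 3 YEPD libraries were above all 3 minimal libraries in each.

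Of 17 tested members of the phosphate starvation response 10 were lower and 1 was higher, with a median of -0.93, and the 12 clear members gave 7 lower and 0 higher. SPL2, a regulator of low-affinity phosphate transport, fell by 1.98 on the log2 scale, and PHO81, the kinase inhibitor that switches the pathway on, fell by 1.41. The secreted acid phosphatase genes PHO11 and PHO12 are near-identical copies (log2 -1.24 and -1.26), so their split is uncertain. PHM7 was the higher one (1.11) and lies beside a frame. Without YEPD replicate 2 the counts were 14 lower and 2 higher.

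**Figure D3:**
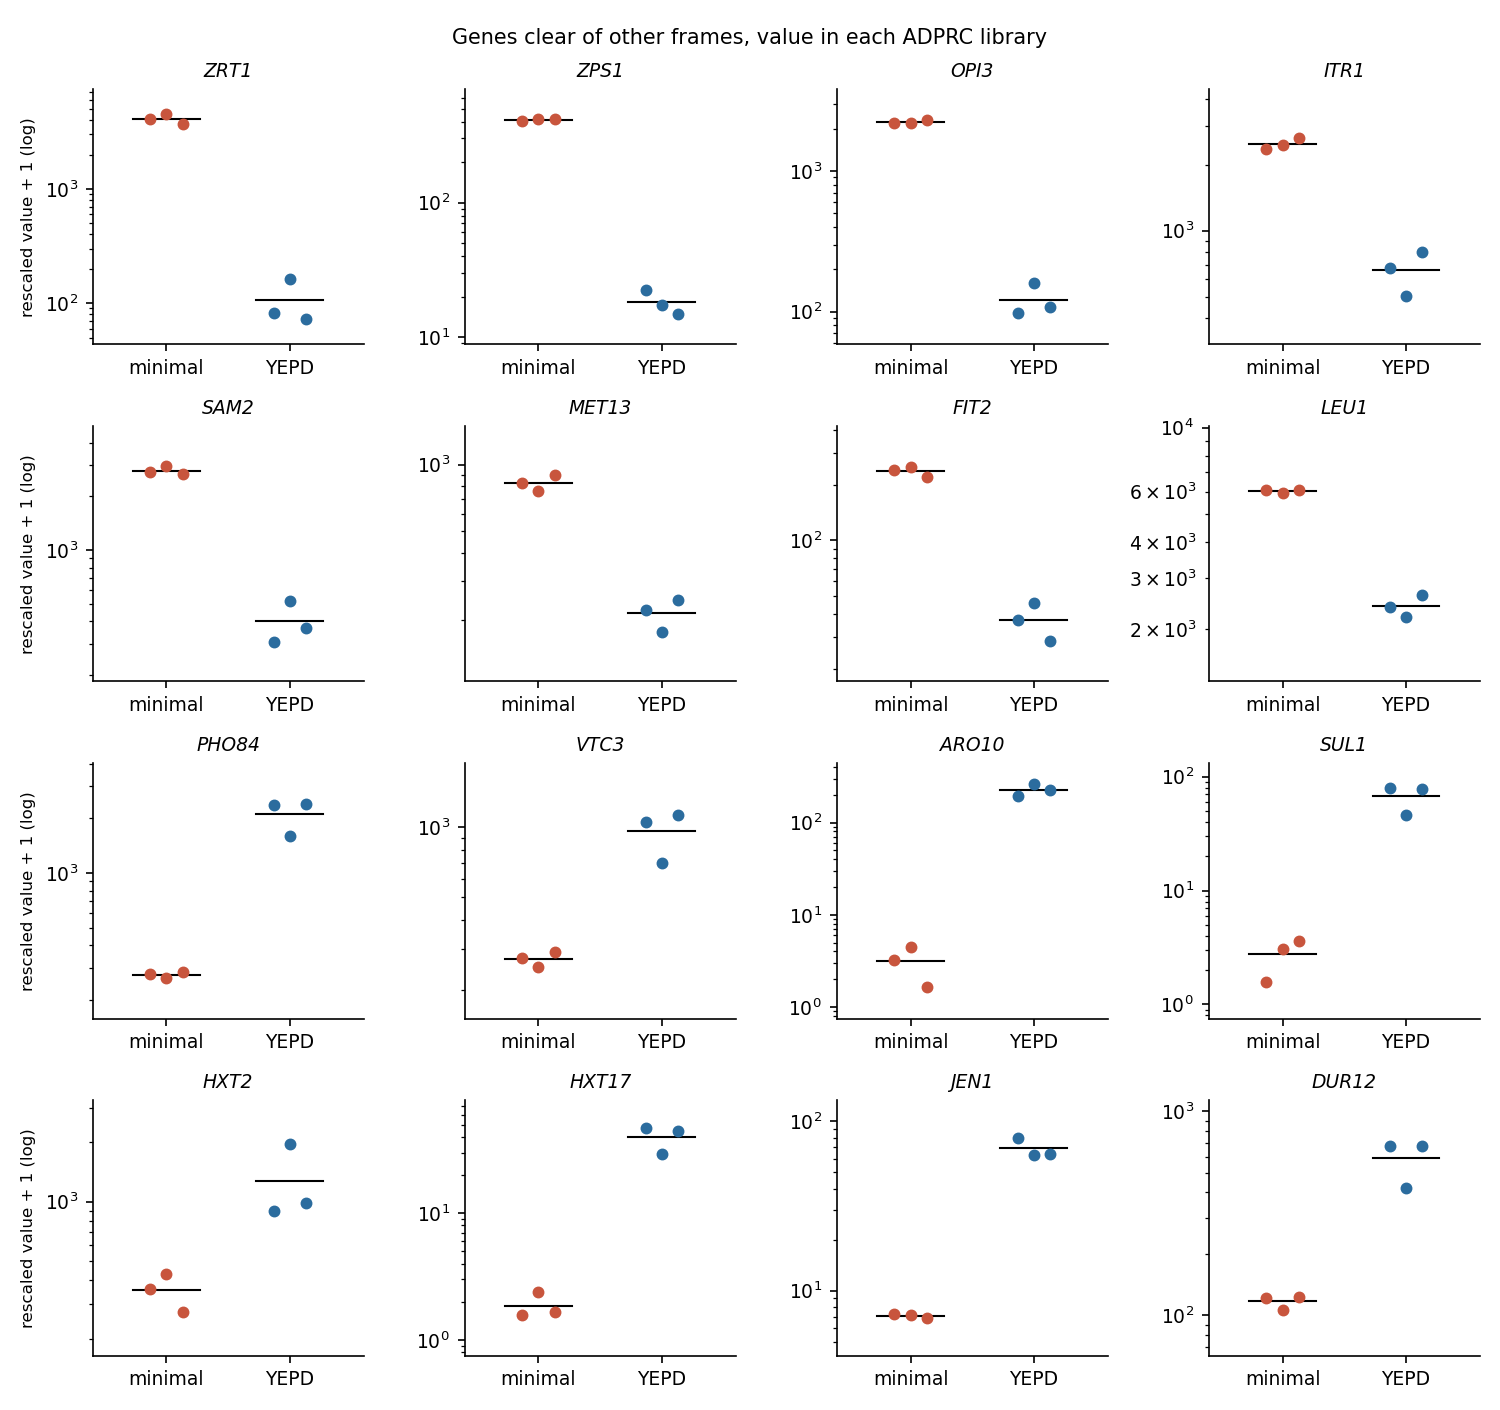
Normalised read count plus 1 (log axis) of 16 clear genes in each of the 6 ADPRC libraries, minimal left of YEPD, with a bar at the group mean. In every panel the media do not overlap: the first 8 genes are higher in minimal (ZRT1 4091 in minimal and 105 in YEPD, on average) and the last 8 lower (PHO84 275 in minimal and 2120.3 in YEPD).

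Hexose transporter genes changed in both directions. HXT1, a low-affinity transporter, had 1476, 1646 and 1559 in the minimal libraries, against 629, 815 and 719 in the YEPD libraries (log2 1.12 ± 0.14), with a frame beside it, and HXT4 had 922, 861 and 932 in the minimal libraries, against 388, 528 and 441 in the YEPD libraries (log2 1.01 ± 0.14). HXT2, a high-affinity transporter, had 359, 429 and 273 in the minimal libraries, against 891, 1962 and 980.4 in the YEPD libraries (log2 -1.78 ± 0.31). For all 3 the groups were separate, and the spread among YEPD libraries was widest for HXT2.

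The rarely expressed transporters HXT13, HXT15, HXT16 and HXT17 were at 0 to 1.37 in every minimal library, against 23.1 to 51.0 in YEPD. HXT15 and HXT16 were at 0 in all minimal libraries and are near-identical copies, so their counts are uncertain. Against the floor HXT15 was at least 23.2-fold lower in minimal. Of 16 tested members 3 were higher and 8 lower, with a median of -1.13, and the 11 clear members gave 2 and 5. The third higher member, HXT3, the most abundant (3844 in minimal and 2347 in YEPD on average, log2 0.72), lost its call without any 1 of the libraries other than YEPD replicate 2 (adjusted p 0.0796 to 0.0993). Without that replicate 3 were higher and 11 lower.

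Of the genes under glucose repression 8 of 19 were lower in minimal, and both media held dextrose. JEN1, the lactate and pyruvate importer, had 6.25, 6.17 and 5.88 in the minimal libraries, against 78.7, 62.5 and 63.5 in the YEPD libraries (log2 -3.28 ± 0.18, adjusted p = 1.31e-05). POX1 and POT1, enzymes of peroxisomal fatty acid oxidation, changed by -3.32 ± 0.36 and -3.69 ± 0.39, and FBP1, the gluconeogenic bisphosphatase, by -3.23 ± 0.36. Of 19 tested members 8 were lower and 0 higher (7 of 16 clear genes), with a median of -0.53. ADH2, the most abundant, had 6199, 7012 and 6309.9 in minimal and 5925, 11156 and 4992 in YEPD and was not called, and YEPD replicate 2 held the highest value. Without that library 13 members were lower and 4 higher, and ADH2 itself changed by 0.26 in the opposite direction (adjusted p = 0.0233).

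Amino acid synthesis changed by pathway. In arginine metabolism ARG3, ornithine carbamoyltransferase, had 104, 102 and 109 in the minimal libraries, against 23.2, 21.05 and 14.8 in the YEPD libraries (log2 2.38 ± 0.19), ARG56 changed by 1.57 ± 0.14 beside a frame, and ARG1 by 0.87 ± 0.14, a call that ended under scaling to the same total (adjusted p = 0.0537). CAR2, an arginine breakdown gene, was lower, with 489, 464 and 503 in the minimal libraries, against 737, 855 and 802 in the YEPD libraries (log2 -0.71 ± 0.12). The ARG3 and CAR2 groups did not overlap. Of 12 members 6 were higher and 2 lower (5 and 1 of 10 clear), with a median of 0.38, and without minimal replicate 1 the higher members numbered 3. Without YEPD replicate 2, 7 were higher and 2 lower.

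In the branched-chain pathway LEU1, isopropylmalate isomerase, had 6069.6, 5908 and 6056 in the minimal libraries, against 2384, 2195 and 2629 in the YEPD libraries (log2 1.33 ± 0.15), OAC1, a mitochondrial carrier of its intermediates, changed by 0.95 ± 0.17, and the aminotransferase BAT1 by 0.82 ± 0.13. These 3 of 11 tested members were higher and 0 lower (median 0.32), and without YEPD replicate 2 the counts were 6 and 1. ILV5, the most abundant, averaged 9635 ± 448 in minimal and 5163 ± 2797 in YEPD (SD) and was not called (adjusted p = 0.099). Lysine (7 tested), histidine (7), purine (21) and pyrimidine (11) synthesis had 0 calls in either direction by limma, and without YEPD replicate 2 they had 2, 1, 9 and 7 higher and 2, 0, 5 and 2 lower. Without that library 28.9% of all genes were higher and 28.5% lower.

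ARO10 and ARO9, the decarboxylase and transaminase that break down aromatic amino acids, were lower in minimal. ARO10 had 2.27, 3.43 and 0.653 in the minimal libraries, against 193, 263 and 222 in the YEPD libraries (log2 -6.29 ± 0.35, adjusted p = 1.41e-05). ARO9 had 20.4, 21.3 and 13.1 in the minimal libraries, against 150.2, 129.7 and 176 in the YEPD libraries (log2 -3.01 ± 0.22) and lies beside a frame. Their YEPD libraries were all far above the minimal ones, whereas 12 of the 15 aromatic metabolism genes were not called (median 0.015, below 0 under scaling to the same total, the deposited values or quantile normalisation). The remaining call, TRP4, was higher and ended without any 1 of the libraries other than YEPD replicate 2 (adjusted p 0.108 to 0.150). Without that replicate 5 were higher and 2 lower.

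Of 20 permease genes tested 6 were higher and 2 lower. SAM3, which imports S-adenosylmethionine, had 773, 877 and 869.5 in the minimal libraries, against 245, 329 and 222 in the YEPD libraries (log2 1.68 ± 0.16), MUP1, the high-affinity methionine permease, had 1715, 1565 and 1754 in the minimal libraries, against 590.1, 652 and 673 in the YEPD libraries (log2 1.39 ± 0.12), and MUP3 changed by 1.01 ± 0.11. PTR2, the importer of small peptides, was lower, with 145, 157 and 128 in the minimal libraries, against 579, 697 and 654 in the YEPD libraries (log2 -2.16 ± 0.13), as was the oligopeptide transporter gene OPT2 (-1.38 ± 0.18). No overlap was seen for any of these 5 genes. BAP3, GNP1 and DIP5, which import other amino acids, were the remaining higher members (0.73, 0.61 and 0.89). The call of BAP3 ended without any 1 library but YEPD replicate 2 (adjusted p 0.0982 to 0.133), and that of GNP1 without any minimal replicate or YEPD replicate 3 (0.0532 to 0.132). Among the 16 clear members 5 were higher and 2 lower, the list's median was 0.22, and without YEPD replicate 2 the counts were 11 and 5.

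Nitrogen catabolite repressed genes had a median near 0 (-0.013), which is above 0 without YEPD replicate 2 (0.078). Of 24 tested members 7 were lower and 2 higher (6 and 1 of 17 clear). DUR12, urea amidolyase, had 121, 105 and 123 in the minimal libraries, against 677, 419.6 and 674 in the YEPD libraries (log2 -2.30 ± 0.20), and the allantoin genes DAL1 and DAL4 changed by -2.47 ± 0.31 and -1.98 ± 0.25. DAL1 averaged 2.81 in minimal and 19.7 in YEPD. GLN1, glutamine synthetase and the most abundant, averaged 1712 in minimal and 1683 in YEPD. The transcription factor gene GAT1 was higher (0.99 ± 0.13), and the higher members numbered 1 without minimal replicate 2, minimal replicate 3 or the unnumbered YEPD library, and 7 without YEPD replicate 2. GDH3, a glutamate dehydrogenase gene of ammonium assimilation, had 25.6, 18.5 and 24.8 in the minimal libraries, against 92.1, 85.5 and 114 in the YEPD libraries (log2 -2.04 ± 0.19).

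Vitamin genes were lower or not called. SNO1, a gene of vitamin B6 synthesis, had 2.27, 2.74 and 2.61 in the minimal libraries, against 33.98, 15.6 and 24.3 in the YEPD libraries (log2 -2.79 ± 0.31), THI7, the thiamine transporter, had 128, 128 and 130.0 in the minimal libraries, against 285, 208 and 281 in the YEPD libraries (log2 -0.98 ± 0.15), and THI73 changed by -1.76 ± 0.23. Of 22 tested thiamine and B6 genes 5 were lower and 0 higher, all 5 clear (median -0.28), and without YEPD replicate 2, 8 were lower. In the biotin pathway BIO5, a transporter of biotin precursors, had 2.27, 0.686 and 3.27 in the minimal libraries, against 25.9, 23.1 and 21.2 in the YEPD libraries (log2 -3.08 ± 0.37), the only call of 6 members. Quantile normalisation put the biotin median above 0 (0.13).

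Of 29 general stress genes 14 were higher and 1 was lower (8 and 0 of 20 clear), with a median of 0.58. PGM2, phosphoglucomutase, had 989, 1040.0 and 876 in the minimal libraries, against 215, 371 and 204 in the YEPD libraries (log2 1.93 ± 0.23). GPH1, glycogen phosphorylase, had 1010.2, 959 and 986 in the minimal libraries, against 254, 303 and 273 in the YEPD libraries (log2 1.83 ± 0.12), and GRE2 changed by 1.57 ± 0.12, both beside frames. Among clear genes glycogen synthase GSY1 (1.27) and catalase CTT1 (1.23) were higher. The count of higher members was 8 without minimal replicate 1 or minimal replicate 3, 9 without minimal replicate 2 and 24 without YEPD replicate 2. The lower one, GRE1, changed by -1.64 ± 0.28 at mean levels of 8.62 in minimal and 27.9 in YEPD. ALD6, the most abundant, changed by -0.10 ± 0.28 and was not called.

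**Figure D4:**
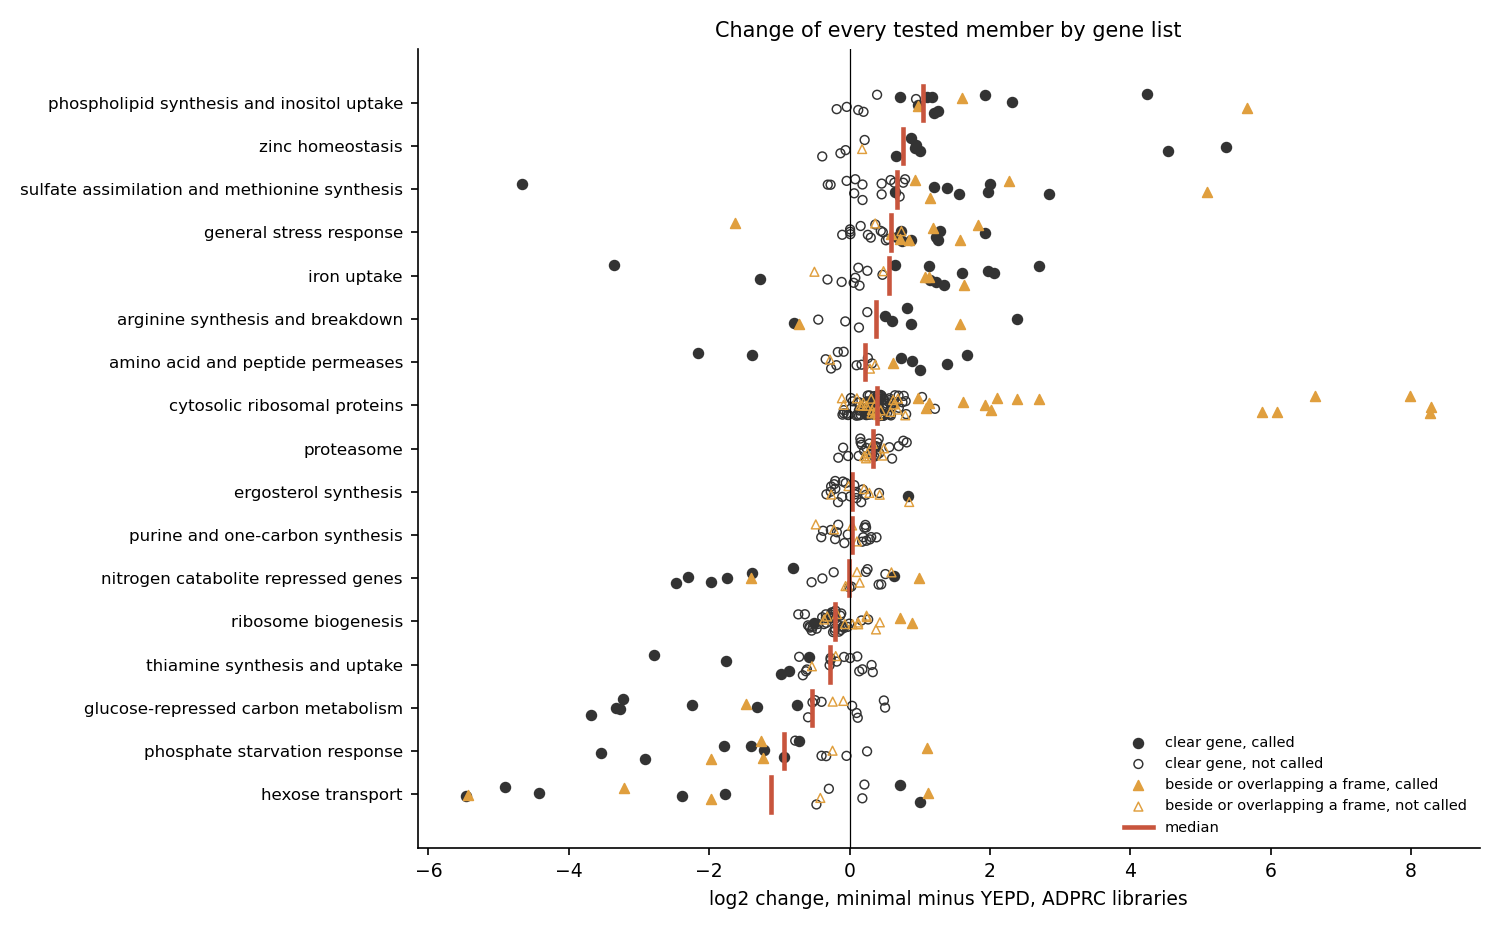
Log2 change (minimal minus YEPD, ADPRC libraries) of every tested member of 17 gene lists, with filled symbols for called genes, triangles for genes beside or overlapping a frame and a bar at each list's median. The medians run from 1.04 for phospholipid synthesis to -1.13 for hexose transport, and the called ribosomal protein genes are all triangles.

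Cytosolic ribosomal proteins had 15 of 138 members higher and 0 lower, with a median of 0.39, and all 15 lie beside or overlap a frame: none of the 102 clear members was called (median 0.36). Without YEPD replicate 2, 125 were higher and 0 lower. RPL4A, the most abundant, averaged 13725 ± 1039 in minimal and 12125 ± 6076 in YEPD (SD). Mitochondrial ribosomal proteins gave 6 of 76 higher and 0 lower (1 of 56 clear), and 35 and 2 without that library. The proteasome list had 0 calls of 33 (median 0.33), and 25 higher and 2 lower without it. Ribosome biogenesis genes had a median of -0.21 with 2 higher and 1 lower of 52, and 7 and 23 without it. The higher members of that list numbered 1 without any minimal replicate or the unnumbered YEPD library, and the lower ones 0 without any library but YEPD replicate 2.

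Highly expressed glycolytic genes showed the same dependence on YEPD replicate 2. TDH3, glyceraldehyde-3-phosphate dehydrogenase and the most abundant, had 104253, 123510.0 and 85029.7 in minimal and 56144, 148864 and 57680.2 in YEPD, so that the groups overlapped. Of 20 members 4 were higher and 0 lower (0 of 14 clear), 14 without YEPD replicate 2, and 1 without any other library. GPM1 (log2 2.25 ± 0.46) and CDC19, pyruvate kinase (1.59 ± 0.34), which both lie beside frames, lost their calls without any library other than YEPD replicate 2 (adjusted p 0.0544 to 0.0932). HXK1, hexokinase, was higher by 0.99 ± 0.14 and lies beside a frame. The 7 tested mitochondrially encoded genes had 0 calls (median -0.51), and 6 were lower without that library.

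The list of decapping, NAD-cap removal and decay genes and that of NAD synthesis and salvage genes held 18.2% (decay) and 13% (NAD) higher members, against 6.16% of all genes. Of all clear genes 2.89% were higher, and of all genes beside or overlapping a frame 16.4%. NPY1, an NADH pyrophosphatase, had 219, 204 and 233 in the minimal libraries, against 161, 182 and 172 in the YEPD libraries (log2 0.35 ± 0.12), and DXO1, a decapping nuclease, had 63.03, 45.3 and 45.1 in the minimal libraries, against 65.3, 57.03 and 33.8 in the YEPD libraries (log2 0.009 ± 0.26). Neither was called: the NPY1 groups were separate (adjusted p = 0.113), and the DXO1 groups overlapped. BNA5, kynureninase of the pathway from tryptophan to NAD, had 183, 196 and 176 in the minimal libraries, against 86.7, 93.7 and 107 in the YEPD libraries (log2 0.95 ± 0.13) and lies beside frames. Of these YLR230W ran the other way, with 0, 0 and 0.653 in minimal and 25.04, 43.5 and 45.5 in YEPD, while YLR232W had 0 to 2.12 in every library. Of 23 NAD genes 3 were higher and 1 lower (1 and 1 of 15 clear), with a median of 0.28. The higher members numbered 1 without any library other than YEPD replicate 2, and 10 without that replicate. Of 22 decay genes 4 were higher and 0 lower (1 of 15 clear, DCS2), and 2 without minimal replicate 2. LSM5, a subunit of the decay-promoting Lsm ring, accounted for the largest change (log2 5.63 ± 0.31) and overlaps a frame. That frame, YER145C-A, had 0 to 1.79 in every library. YER147C-A, another frame beside LSM5, ran the other way, with 0 in every minimal library against 47.4, 87.6 and 39.1 in YEPD. XRN1, the cytoplasmic exonuclease and the most abundant, had 1412, 1356 and 1433 in the minimal libraries, against 1959, 1079.6 and 2049.6 in the YEPD libraries (log2 -0.22 ± 0.24), and without YEPD replicate 2 the decay list had 12 higher and 4 lower.

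Among chaperones 13.3% were higher, and among redox genes 10.3%, against 6.16% of all genes. Of all clear genes 2.89% were higher, and of all genes beside or overlapping a frame 16.4%. SSA1, a cytosolic Hsp70, had 21155, 20534 and 19436 in the minimal libraries, against 9262, 8208 and 10184 in the YEPD libraries (log2 1.15 ± 0.18), a call that ended under quantile normalisation (adjusted p = 0.119), and CPR6, a cyclophilin that works with Hsp90, changed by 1.20 ± 0.14. Both lie beside frames, and HSP31 (1.00 ± 0.16) is clear. Of 30 chaperones 4 were higher and 1 lower (2 and 1 of 25 clear), and 21 and 1 without YEPD replicate 2. The lower one, SSA3, lost its call without minimal replicate 1 (adjusted p = 0.0653), minimal replicate 2 (0.0576) or the unnumbered YEPD library (0.051).

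Of 29 redox genes 3 were higher and 1 lower (2 and 1 of 23 clear). The higher ones numbered 1 without any minimal replicate or the unnumbered YEPD library, and 20 without YEPD replicate 2, when 3 were lower. CTA1, the peroxisomal catalase, was the lower one, with 6.25, 4.12 and 7.19 in the minimal libraries, against 38.4, 42.1 and 33.8 in the YEPD libraries (log2 -2.54 ± 0.24), while the cytosolic catalase CTT1 was higher. The media did not overlap for either catalase.

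Of 33 cell wall genes 1 was higher and 3 lower (12 and 13 without YEPD replicate 2). CWP1, a mannoprotein, had 1515, 1471 and 1409 in the minimal libraries, against 549.9, 883 and 546 in the YEPD libraries (log2 1.19 ± 0.20). The flocculin genes FLO9 and FLO1, which are near-identical in part and so uncertain, changed by -1.53 ± 0.17 and -1.22 ± 0.20. The cyanamide hydratase copies DDI2 and DDI3, also near-identical, changed by -3.35 ± 0.33 and -3.39 ± 0.33 and were the only calls among 17 genes of DNA damage response and dNTP supply (4 higher and 7 lower without YEPD replicate 2). Histones had 0 calls of 11 by limma (median 0.40), and 7 were higher without YEPD replicate 2.

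Other metabolic lists had at most 4 calls each. The glycine cleavage genes GCV1, GCV2 and GCV3 changed by -0.59 ± 0.14, -0.86 ± 0.16 and -0.67 ± 0.13 and were the only calls among 15 genes of serine, glycine and threonine synthesis. The lower count was 0 without minimal replicate 1 or 2 and 1 without minimal replicate 3, and leaving out YEPD replicate 2 gave 9 higher and 3 lower. Each of the 3 lost its call without at least 2 of the libraries (adjusted p 0.0532 to 0.129). The list's median was 0.099 and below 0 under scaling to the same total, the deposited values or quantile normalisation.

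The nuclear part of oxidative phosphorylation, with 39 tested members, gave 2 higher and 2 lower genes (1 and 1 of 31 clear), and 23 and 5 without YEPD replicate 2. The external NADH dehydrogenase genes NDE2 and NDE1 were the lower ones, at -1.88 ± 0.29 and -0.93 ± 0.14. NDE2 had 9.09, 10.98 and 5.23 in the minimal libraries, against 26.8, 38.02 and 33.8 in the YEPD libraries and lies beside a frame. The higher ones, CYC7 and ATP1, numbered 1 without minimal replicate 2 and 0 without any other library but YEPD replicate 2.

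The mating type markers of an alpha cell were detected. The pheromone gene MF(ALPHA)1 averaged 4361 ± 1228 in minimal and 4345 ± 2662 in YEPD (SD, n = 3) and was not called. SAG1, alpha-agglutinin, had 963, 889.7 and 951 in the minimal libraries, against 2985, 2127 and 3026 in the YEPD libraries (log2 -1.52 ± 0.17), and the minor pheromone gene MF(ALPHA)2 had 279, 237 and 312 in the minimal libraries, against 932, 791 and 803 in the YEPD libraries (log2 -1.61 ± 0.14), both lower in minimal and without overlap. The receptor gene STE3 had 655, 667 and 553 in minimal and 561, 557 and 587 in YEPD. Of 7 a-cell genes 2 were tested, since MFA1, MFA2, STE2, AGA2 and ASG7 were below the mean of 10. STE6, the exporter of a-factor, averaged 33.4 in minimal and 49.01 in YEPD and was not called (log2 -0.54 ± 0.15). BAR1, the a-cell protease, averaged 5.35 in minimal and 19.1 in YEPD, and its call as lower ended without any 1 of the libraries other than YEPD replicate 2 (adjusted p 0.0536 to 0.168).

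Of the 12 largest falls among genes with a symbol and a mean of at least 50, 11 were in clear genes, ARO9 being the exception. IME4, a methyltransferase of the meiotic programme, had 0.568, 0 and 0.653 in minimal and 175, 168 and 176 in YEPD (log2 -6.99 ± 0.25). Haploid cells are known to transcribe an antisense RNA over IME4. Whether reads were counted by strand is not given, so the strand of the IME4 reads was not tested. CSS1 had 24.4, 24.7 and 24.8 in the minimal libraries, against 1381, 1437 and 1531 in the YEPD libraries (log2 -5.82 ± 0.11). AGA1, the anchor of a-agglutinin, had 269, 233 and 274 in the minimal libraries, against 1549, 1129.8 and 1722 in the YEPD libraries (log2 -2.48 ± 0.18). The ABC transporter gene PDR18 (log2 -3.97), the maltose permease gene MPH3 (-2.77), the purine and cytosine permease gene FCY22 (-2.49), ATR2 (-5.52) and MOR1 (-4.13) complete the set with ARO10, ARO9, PHO84 and FRE5, described above. NDT80, the activator of mid-meiotic genes, was also lower, at 4.54, 3.43 and 5.88 in minimal and 34.9, 35.3 and 33.8 in YEPD (log2 -2.69 ± 0.23).

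Level and length went with the direction. Of clear genes with a mean of at least 50, 111 of 3366 were higher and 103 lower, while of those between 10 and 50, 8 of 747 were higher and 106 lower. That group includes low falls described above such as HXT13, HXT17, SUL1 and JEN1, and the part of library preparation or counting in them was not tested. Genes were also grouped by RefSeq gene length, which is not the coding length for every gene. The median log2 change was 0.35 in genes under 300 bases and -0.27 in those of 2500 bases and over. Without YEPD replicate 2 it was 0.57 and -0.46. The part of length in the calls was not tested beyond removal of the trend, which gave 488 higher and 334 lower genes.

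The mock libraries, which went through the procedure without enzyme, were compared between media in 1 fit to all 12 libraries. In them 608 genes were higher in minimal (11.1%) and 513 lower (9.35%). The ADPRC libraries in that same fit gave 603 higher and 467 lower, against 338 and 297 in the fit to the 6 ADPRC libraries alone. Of those 338 higher genes 331 had the same sign in mock libraries and 293 were called there, and of the 297 lower genes 294 and 254. Across all genes the 2 sets of log2 changes, which share no library, had a Pearson correlation of 0.942, and 0.899 across clear genes, as a description only. ZRT1 changed by 5.36 in ADPRC and 5.01 in mock libraries, OPI3 by 4.24 and 4.19, PHO84 by -2.92 and -2.55, and ARO10 by -6.29 and -5.83.

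**Figure D5:**
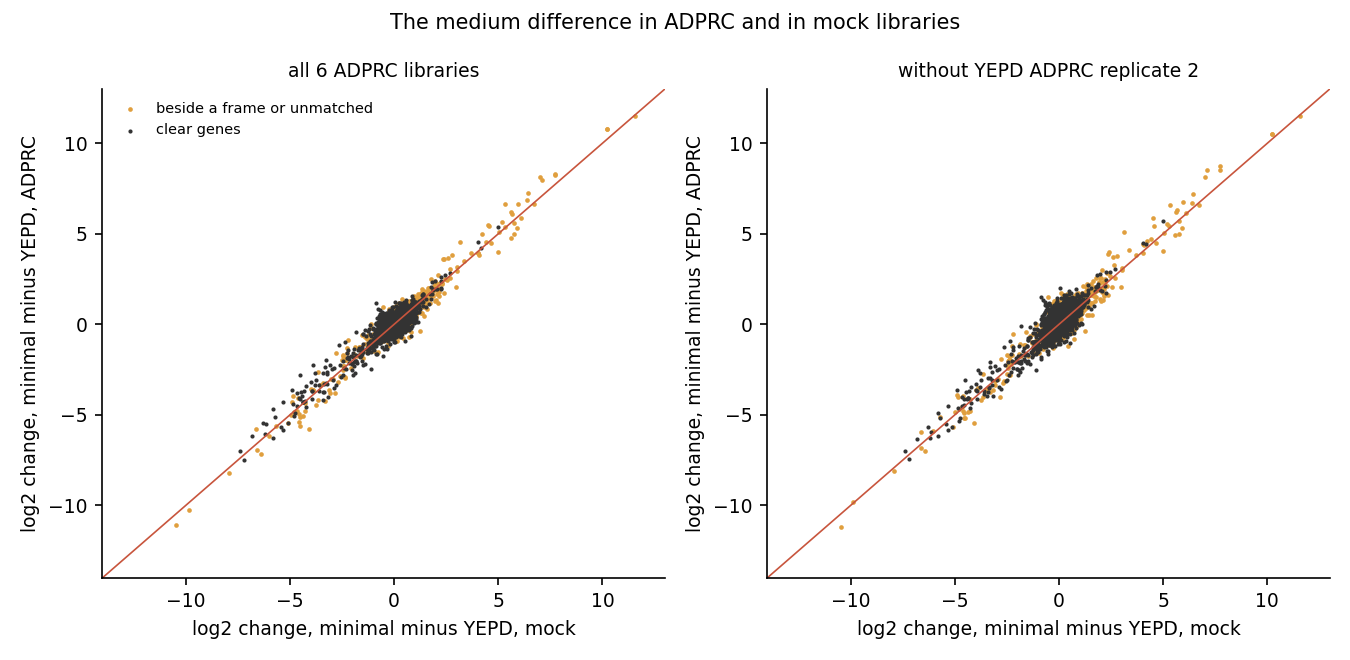
Log2 change between media in ADPRC libraries (vertical axis) against that in mock libraries (horizontal axis), with 1 point per kept identifier and a line of equality, for all 6 ADPRC libraries on the left and without YEPD ADPRC replicate 2 on the right. Points follow the line in both panels, with a correlation of 0.942 on the left.

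A direct test of the difference, ADPRC minus mock, called 0 genes higher (0%) and 0 genes lower (0%) by limma, with 462 genes at an unadjusted p under 0.05 (8.42%) and a smallest adjusted p of 0.177. Without YEPD ADPRC replicate 2 it called 519 higher (9.46%) and 529 lower (9.64%). The 2 genes with the smallest unadjusted p, chosen after their values were seen, are both clear. LOC1, which acts in mRNA localisation and ribosome assembly, changed by 0.36 in ADPRC and -0.83 in mock libraries, a difference of 1.19 ± 0.21 (SE; 1.30 without that replicate, adjusted p = 8.12e-05). SOL3, a pentose phosphate pathway enzyme, changed by 0.12 in ADPRC and 1.06 in mock libraries, a difference of -0.95 ± 0.17 (-1.01 without that replicate, adjusted p = 2.5e-05).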

How the data were processed

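The deposited table holds a normalised signal per gene and library. Per the submitters' processing notes, the tools were FastQC, Trimmomatic, Bowtie, HTSeq and DESeq. Not given in the sources used here are the genome build, annotation, strand setting and versions. Within a library the deposited signal was a whole multiple of 1 read's worth (tolerance 0.01), so whole reads were recovered.

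The 6 columns were rescaled by median of ratios over kept genes and tested with limma 3.58.1 (trend and robust estimation, R 4.3.3) on log2(value + 1), with Benjamini-Hochberg adjustment. Printed levels are rescaled values. A fold change understates low genes. Mock contrasts and the difference ADPRC minus mock came from 1 fit to 12 libraries. edgeR 4.0.16 and DESeq2 1.42.0 on recovered reads were alternatives, and limma was tested on simulated data. Floors of 3 reads cover counting error only. Names came from RefSeq R64, which matched 5919 of 6607 identifiers.

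Genes named are the 12 largest rises and 12 largest falls (adjusted p under 0.05, mean of at least 50, no overlap, symbol in RefSeq) and, per list, up to 3 called members each way plus the most abundant. Others were chosen after their values were seen. A list's most abundant member was picked by its mean in the minimal libraries. Members and lists were chosen with earlier results of these data known. 1 gene is not reported here.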

Additional observations from a re-analysis of the deposited data

How the results depend on the processing

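Main counts between media were 338 higher and 297 lower genes. Weights per library gave 1862 and 1880, a mean of at least 50 gave 254 and 134, no filter 464 and 493, values as deposited 263 and 678, and 12 libraries in 1 fit 603 and 467. Matched identifiers with no unmatched neighbour gave 125 and 186. Under choices made after seeing the data, clear genes alone gave 112 and 176, and libraries 2 and 3 only gave 119 and 154. Leaving out each library in turn gave 215 to 1585 higher and 217 to 1564 lower genes, and YEPD ADPRC replicate 2 set both upper values. Counts stayed within 1.5 times the main ones in both directions with edgeR (333 and 304), DESeq2 (385 and 320), TMM (340 and 299), quantile normalisation (315 and 284), the same total (249 and 289), a pseudocount of 8 (348 and 299) and limma without trend and robust estimation (341 and 312).

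The difference ADPRC minus mock, 0 and 0 in the 12-library fit, gave 568 and 514 with weights per library, 3 and 1 with the length trend removed, and 0 to 519 higher and 0 to 529 lower when each library was left out. The cause of these shifts was not tested. Of 219 called named genes 163 held their call whichever library was left out and 112 under every setting, and none changed sign. ADH2 and ALD6, which were not called, turned to 0.26 and 0.23 without YEPD ADPRC replicate 2 (limma, adjusted p = 0.0233 and 0.0238), and ALD6 to 0.27 with weights per library (0.0104). When the other libraries were left out in turn, ADH2 gave -0.33 to -0.05 and ALD6 -0.30 to -0.06.

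With a replicate block on numbers 2 and 3, the only numbers that table columns of both media carry, 292 genes were higher and 242 lower, and the calls of CAR2, BAT1 and SSA1, among others, ended. The same libraries without the block gave 119 higher and 154 lower. The calls of CAR2, BAT1 and SSA1 ended there too (limma, adjusted p = 0.129, 0.207 and 0.219). Same-numbered libraries deviated together with r = 0.314 and 0.213, but minimal replicate 3 and the unnumbered YEPD library gave 0.285. The remaining pairs across media gave -0.299 to 0.029. Replicate numbers 2 and 3 alone do not show pairing. Depth limits low genes: 3 reads correspond to a level of 1.70 to 2.06 in minimal and 2.04 to 3.17 in YEPD.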
